A study of Homo sapiens with 16 samples.

Results

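The mitochondrial ribosomal protein genes were taken as every gene whose symbol is MRPL or MRPS followed by a number and at most 1 letter from A to C, with a summed raw count of at least 50 over all libraries. The rule found 76 genes of the 39249 measured, 48 of them MRPL genes and 28 MRPS genes. All 76 matching symbols passed the minimum, the lowest being MRPL30 with 60 counts and then MRPS24 with 401, and 75 were tested, since MRPL30 failed the filter on low counts.

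The libraries came from 8 groups of 2 replicates. Monoclonal knockouts of MRPL45, CYC1 or UQCRFS1 in the Ewing sarcoma line A673 and the parental A673 line itself (the knockouts are called KO cells here) each received 500 nM SP-2509 or 0.1% DMSO for 48 h. SP-2509 inhibits the histone demethylase LSD1, which the gene KDM1A encodes. Each knockout line is 1 clone, so a difference from A673 cannot be told apart from a difference between clones. The labels do not tell whether replicates are separate cultures. The p-values therefore reflect the spread between libraries alone, and that spread may be technical.

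The mitochondrial ribosome translates the few messages of the mitochondrial genome, all of which encode subunits of the respiratory chain and of ATP synthase. Its 2 ribosomal RNAs are transcribed in the organelle, while all of its proteins are encoded in the nucleus and imported. The large subunit (MRPL genes) joins amino acids and holds the exit tunnel, where MRPL45 docks the ribosome to the inner membrane, and the small subunit (MRPS genes) decodes the message. Names follow the first assignments: in later structures MRPS30 and MRPS18A sit in the large subunit, and MRPS36 has been assigned to the 2-oxoglutarate dehydrogenase complex.

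Total counts per library ranged from 24873597 to 56171036, of which the 76 genes took 0.3199% to 0.4483%. Levels are given as CPM, the count of a gene scaled to library size, with library sizes adjusted by the trimmed mean of M-values (TMM). Differences are log2 fold changes ± SE from edgeR's quasi-likelihood test, with p-values adjusted by the Benjamini-Hochberg method over all 21633 tested genes of a comparison, and a gene is called where the adjusted p is under 0.05. CYC1 stood at 71.1 to 82.2 CPM in the 4 libraries of its own knockout line, against 258.5 to 307.9 CPM in the 12 others. UQCRFS1 stood at 58.6 to 88.2 CPM in its knockout line, against 88.6 to 118.7 CPM elsewhere. The MRPL45 gene itself was not analysed here, so that knockout was not checked on its own gene. All 10 Ewing sarcoma markers were expressed, and the 8 markers found for leukocytes, epithelium and endothelium stayed at or under 1.05 CPM.

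Promoter sequences from RefSeq on GRCh38.p14 were matched by symbol for 67 of the 76 genes. They run from 250 bases before the annotated start to 50 after it. The promoters of 6 genes are shown from 120 bases before to 30 bases after the start, because the results turn on these genes: MRPL58, MRPS23 and MRPS26 had the largest called falls in MRPL45 KO cells, MRPL37 and MRPS30 the largest rises with SP-2509 in A673 and MRPL40 the largest fall. Capitals mark the letters CCGGAAG, the core bound by ETS factors, the family to which the FLI1 part of the Ewing fusion protein belongs, or AAGATGGCG, the core of YY1, on either strand. Sequences are written 5′ to 3′ on the strand of the gene.

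MRPL58 (chr17:75012550-75012699, plus strand): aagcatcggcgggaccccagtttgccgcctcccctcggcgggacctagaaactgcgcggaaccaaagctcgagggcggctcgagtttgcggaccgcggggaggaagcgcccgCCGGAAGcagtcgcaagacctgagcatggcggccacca
MRPS23 (chr17:57850015-57850164, minus strand): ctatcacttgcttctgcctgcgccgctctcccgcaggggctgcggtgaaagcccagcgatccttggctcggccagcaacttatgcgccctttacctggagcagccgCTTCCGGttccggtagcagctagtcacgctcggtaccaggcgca
MRPS26 (chr20:3045932-3046081, plus strand): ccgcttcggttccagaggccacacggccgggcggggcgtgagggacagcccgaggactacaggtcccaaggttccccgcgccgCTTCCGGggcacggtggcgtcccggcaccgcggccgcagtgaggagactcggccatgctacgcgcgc
MRPL37 (chr1:54200047-54200196, plus strand): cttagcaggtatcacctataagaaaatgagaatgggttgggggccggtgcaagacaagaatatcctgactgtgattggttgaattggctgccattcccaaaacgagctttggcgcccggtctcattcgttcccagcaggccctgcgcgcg
MRPS30 (chr5:44808827-44808976, plus strand): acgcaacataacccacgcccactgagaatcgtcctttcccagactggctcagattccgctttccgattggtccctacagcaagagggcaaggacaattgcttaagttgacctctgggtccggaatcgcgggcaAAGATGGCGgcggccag
MRPL40 (chr22:19432425-19432574, plus strand): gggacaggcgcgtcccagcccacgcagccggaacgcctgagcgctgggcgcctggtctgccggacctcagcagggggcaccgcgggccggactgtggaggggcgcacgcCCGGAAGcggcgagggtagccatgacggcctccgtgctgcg

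CCGGAAG occurred on either strand in 28 of the 67 promoters (41.8%) and in 2018 of the 11864 promoters of all tested genes in the table (17.01%). AAGATGGCG occurred in 13 (19.4%) against 408 (3.4%). TGCGCA, one arm of the site of the respiratory gene regulator NRF1, occurred in 13 (19.4%) against 1473 (12.4%). CACGTG, the E-box, occurred in 5 (7.5%) against 1143 (9.6%), and CCAAT in 19 (28.4%) against 4301 (36.3%). The median GC content was 60.3% in the 67 promoters and 64.7% over all of them. These shares describe letters in a window and are not evidence of binding.

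The mitochondrial ribosomal protein genes stood lower in MRPL45 KO cells than in A673, both with DMSO. Of the 75 tested, 54 were called lower and 3 higher, with a median log2 fold change of -0.48. Over all 21633 genes the median was 0.01, with 29% called lower and 28.9% called higher, or 57.8% in either direction. The summed level of the 76 genes was 2889 and 3164 CPM in the MRPL45 knockout libraries, against 4255 and 4074 CPM in the A673 libraries. Both subunits took part: 37 of 47 MRPL genes were called lower (median -0.46) and 17 of 28 MRPS genes (median -0.54). The sum of MRPL levels over that of MRPS levels was 1.51 and 1.54 in the knockout libraries and 1.51 and 1.49 in the A673 libraries. This ratio, which goes by gene symbol, moved little beside the fall in the sum.

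**Figure D1:**
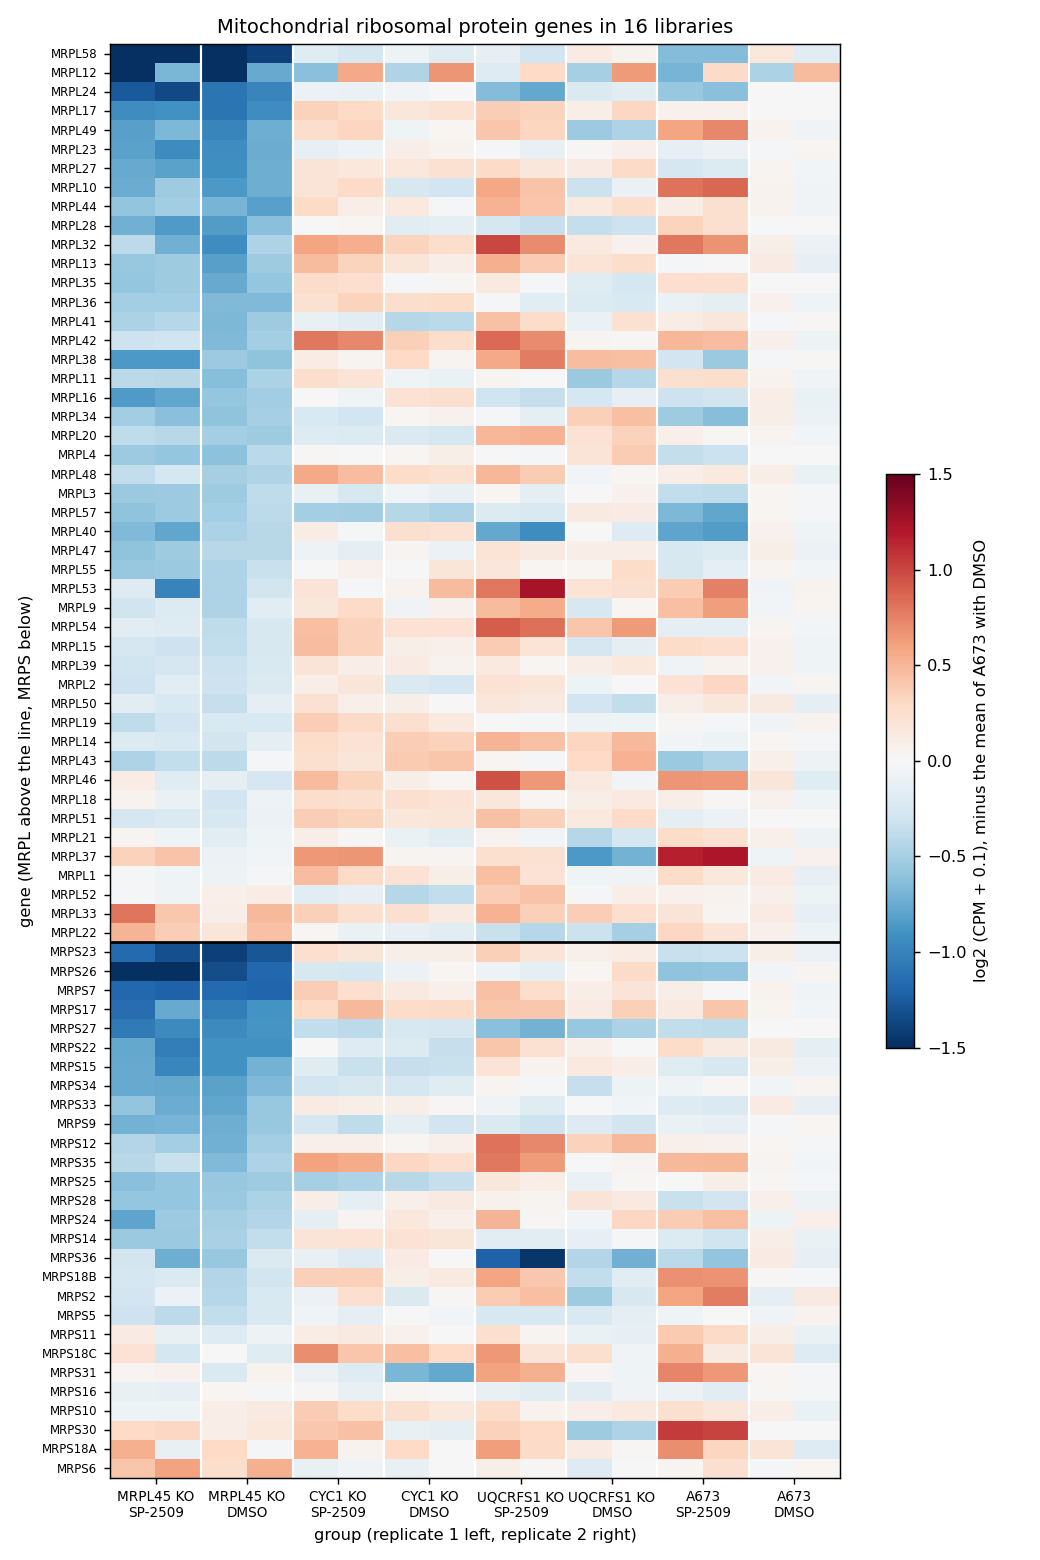
Level of each of the 75 tested genes in each of the 16 libraries, as log2 (CPM + 0.1) minus the mean of the 2 A673 libraries with DMSO, with colours that stop at -1.5 and 1.5. Rows are MRPL genes above the line and MRPS genes below it, ordered by MRPL45 KO cells with DMSO, and the 4 columns of MRPL45 KO cells are blue for most genes.

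The largest called fall was in MRPL58, a peptidyl-tRNA hydrolase built into the large subunit. Its level was 9.32 and 11.1 CPM in MRPL45 KO cells, against 32.8 and 26.4 CPM in A673. The groups lay far apart, and the log2 fold change was -1.55 ± 0.10 (edgeR, adjusted p = 3.08e-12). MRPS23, a small-subunit protein with no bacterial counterpart, had 32.9 and 35.7 CPM in the knockout line, against 92.7 and 81.6 CPM in A673 (log2 fold change -1.35 ± 0.07, edgeR adjusted p = 5.13e-14). MRPS26, also specific to mitochondria, had 23.6 and 26.3 CPM in the knockout line, against 57.8 and 61.3 CPM in A673 (log2 fold change -1.26 ± 0.08, edgeR adjusted p = 5.22e-13). MRPS7, which binds the head of the small subunit, had 38.1 and 37.7 CPM, against 89.3 and 82.5 CPM in A673. Its replicates in the knockout line differed by less than 1 CPM, and its log2 fold change was -1.18 ± 0.07 (edgeR, adjusted p = 2.01e-13).

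MRPL24 and MRPL17, relatives of bacterial proteins that sit near the mouth of the exit tunnel, completed the 6 largest called falls. MRPL24 had 23.9 and 25.7 CPM in MRPL45 KO cells, against 51.4 and 50.7 CPM in A673 (log2 fold change -1.05 ± 0.06, edgeR adjusted p = 6.97e-13). MRPL17 had 28.6 and 32.1 CPM, against 61.5 and 61.2 CPM in A673 (log2 fold change -1.02 ± 0.07, edgeR adjusted p = 3.29e-12). For each of the 6 genes both knockout libraries lay below both A673 libraries.

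The 3 genes called higher were in both subunits. MRPS6, the relative of bacterial S6, had 61.1 and 73.8 CPM in MRPL45 KO cells, against 49.7 and 52.1 CPM in A673 (log2 fold change 0.40 ± 0.09, edgeR adjusted p = 0.000963). MRPL22, which lines the exit tunnel, had 38.6 and 46.0 CPM, against 35.8 and 32.3 CPM in A673 (log2 fold change 0.31 ± 0.08, edgeR adjusted p = 0.00327). MRPS30 had 80.7 and 84.5 CPM, against 75.7 and 75.4 CPM in A673 (log2 fold change 0.13 ± 0.05, edgeR adjusted p = 0.0495). The call for MRPS30 was at the threshold and was lost whenever 1 of the 4 libraries was left out. MRPS6 missed the threshold without A673 replicate 1 or without knockout replicate 2, and MRPL22 without A673 replicate 2 or without knockout replicate 2. In both genes replicate 2 held the higher of the knockout values.

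The remaining 18 genes were not called, with 4 log2 fold changes above 0 and 14 below it, between -1.29 (MRPL12) and 0.29 (MRPL33). MRPL37, at 75.9 and 78.2 CPM in MRPL45 KO cells and 76.8 and 84.2 CPM in A673, was among those whose groups overlapped, and so was MRPS16, at 119.0 and 114.4 CPM against 118.4 and 115.6 CPM. A p that misses the threshold does not show that the levels were equal. By class, 24 of 29 MRPL genes with a bacterial counterpart and 13 of 18 specific to mitochondria were called lower (29% of all genes). Among MRPS genes, which include MRPS18A, MRPS30 and MRPS36, these counts were 9 of 17 and 8 of 11, so genes of both origins were among those called.

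**Figure D2:**
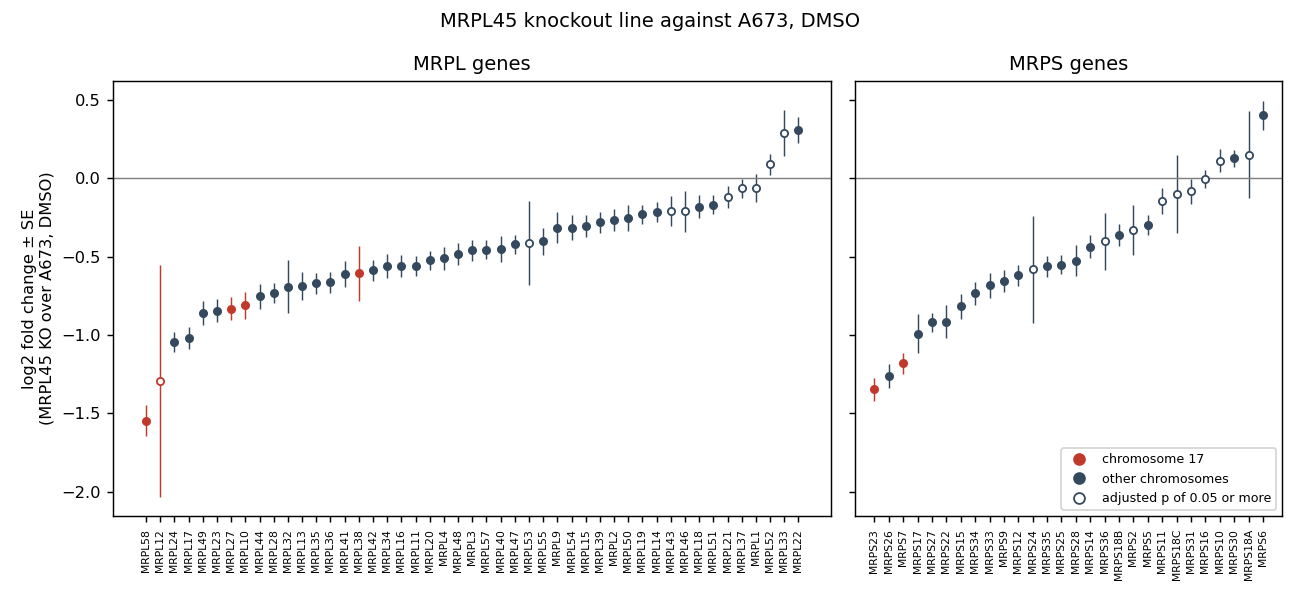
Log2 fold change ± SE of each tested gene in MRPL45 KO cells over A673, both with DMSO, for MRPL genes (left) and MRPS genes (right). Filled points were called, open points had an adjusted p of 0.05 or more, and the 7 genes on chromosome 17, in red, all lie below 0.

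Among chromosomes with at least 2 of the genes, the 7 genes on chromosome 17 had the lowest median, a grouping that was made after the values were seen and is given as a description. In their order along the chromosome they are MRPL10, MRPL27, MRPS23, MRPL58, MRPS7, MRPL38 and MRPL12, and their log2 fold changes in MRPL45 KO cells ranged from -1.55 to -0.61 with a median of -1.18. Their summed level was 124.7 and 140.4 CPM in the knockout libraries, against 303.3 and 291.0 CPM in the A673 libraries. The 847 tested protein-coding genes of chromosome 17 had a median of -0.38, of which 462 were called lower and 168 higher. Without these 7 genes, 48 of the remaining 68 were called lower, with a median of -0.45. Medians of protein-coding genes also differed between other chromosomes, with 0.43 on chromosome 10, where the 2 member genes had a median of -0.11, and -0.46 on chromosome 4, where the 2 member genes had -0.08. The part of the chromosomes in the fall of the gene group was not tested.

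Genes that serve the same machine were read beside them. Of 24 tested assembly factors of the mitochondrial ribosome, 21 were called lower in MRPL45 KO cells and 2 higher, with a median log2 fold change of -0.43. Over all tested genes 29% were called lower and 28.9% higher. RPUSD4, which makes pseudouridine in the large ribosomal RNA, had -1.21 ± 0.08, MTERF3, which is needed for ribosome biogenesis, -1.06 ± 0.09, and MRM2, a methyltransferase of the large ribosomal RNA, -1.001 ± 0.065. Of 16 tested factors of mitochondrial translation, 11 were called lower and 1 higher (median -0.34), and TACO1, the activator of COX1 translation, had -1.05 ± 0.07. Of the 5 proteins of the ribosome that carry other symbols, DAP3 (-0.72 ± 0.06) and PTCD3 (-0.44 ± 0.06) were called lower and GADD45GIP1 (0.37 ± 0.07) higher. The cytosolic ribosomal protein genes, which build a different ribosome, had 41 of 79 called lower and 5 higher with a median of -0.30. So the fall of the mitochondrial genes was not the only one among ribosomal protein genes, and the difference between these groups of genes was not tested.

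The 2 mitochondrial ribosomal RNAs were called lower in MRPL45 KO cells, but their A673 libraries disagreed. MT-RNR1, of the small subunit, had 65.9 and 13.9 CPM in the knockout line, against 70.6 and 459.9 CPM in A673. MT-RNR2, of the large subunit, had 63.1 and 21.6 CPM in the knockout line, against 297.9 and 823.8 CPM in A673. The groups did not overlap for either gene, but A673 replicate 2 alone held the high MT-RNR1 value. In a library of poly(A) RNA these values need not follow the amount of ribosomal RNA.

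CYC1 and UQCRFS1 KO cells, which target subunits of respiratory complex III, did not show such a fall. In CYC1 KO cells with DMSO, 16 of 75 genes were called higher and 14 lower relative to A673 (median 0.05), with 21.4% of all genes called higher and 16.2% lower (37.6% in either direction). With upper-quartile scaling these counts were 5 and 20, with the filter of 5 CPM 7 and 18, with no filter 9 and 14, and with only the groups compared 8 and 15. They were 4 and 11 without A673 replicate 2, 5 and 12 without knockout replicate 1, and 7 and 9 without knockout replicate 2. In UQCRFS1 KO cells 13 were called higher and 19 lower (median 0.03), with 15.8% of all genes called higher and 15% lower (30.8% in either direction). Without A673 replicate 2 these counts were 7 and 14, and without knockout replicate 2 they were 5 and 16. The 3 comparisons share the same A673 libraries. Their summed levels were 4247 and 4210 CPM in CYC1 KO cells and 3944 and 4181 CPM in UQCRFS1 KO cells, against 4255 and 4074 CPM in A673, so neither sum stood apart from that of A673 as the MRPL45 knockout did.

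In CYC1 KO cells MRPS31, a small-subunit protein specific to mitochondria, was lowest. It had 13.3 and 12.5 CPM, against 21.9 and 20.96 CPM in A673 (log2 fold change -0.73 ± 0.08, edgeR adjusted p = 1.33e-07). MRPL57 (-0.45 ± 0.06), MRPL41 (-0.42 ± 0.08) and MRPL52 (-0.40 ± 0.07), all of the large subunit, were also called lower. MRPL43 (0.40 ± 0.09), MRPL14 (0.36 ± 0.06), MRPL42 (0.31 ± 0.07) and MRPS35 (0.28 ± 0.07) were called higher. The sum of MRPL levels over that of MRPS levels was 1.62 and 1.61 in CYC1 KO cells against 1.51 and 1.49 in A673. In UQCRFS1 KO cells with DMSO this ratio was 1.58 and 1.59, also above both A673 libraries.

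In UQCRFS1 KO cells MRPL37, a large-subunit protein specific to mitochondria, had 44.2 and 49.1 CPM, against 76.8 and 84.2 CPM in A673 (log2 fold change -0.79 ± 0.06, edgeR adjusted p = 8.5e-10). MRPS30 had 52.3 and 54.7 CPM, against 75.7 and 75.4 CPM in A673 (log2 fold change -0.50 ± 0.05, edgeR adjusted p = 1.68e-07). Both genes are among those that SP-2509 raised, and here they stood below A673 before treatment. MRPS36 (-0.59 ± 0.18), MRPS27 (-0.52 ± 0.06) and MRPL49 (-0.50 ± 0.07) were also called lower. MRPL54 (0.53 ± 0.08), MRPL38 (0.47 ± 0.16), MRPS12 (0.42 ± 0.07) and MRPL43 (0.41 ± 0.09) were called higher. MRPL38 rested on low counts, at 3.16 and 3.12 CPM against 2.23 and 2.30 CPM.

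With SP-2509 the called genes of the group were mostly higher in CYC1 and UQCRFS1 KO cells and went both ways in MRPL45 KO cells and A673. The summed level was 3110 and 3088 CPM with SP-2509 and 2889 and 3164 CPM with DMSO in MRPL45 KO cells, and 4682 and 4564 CPM against 4247 and 4210 CPM in CYC1 KO cells. It was 4940 and 4594 CPM with SP-2509 and 3944 and 4181 CPM with DMSO in UQCRFS1 KO cells, and 4549 and 4556 CPM against 4255 and 4074 CPM in A673. Both treated libraries exceeded both DMSO libraries in CYC1 and UQCRFS1 KO cells and in A673, and the groups overlapped in MRPL45 KO cells. In A673 this order depended on the TMM scaling and on the measure. As shares of raw counts its groups overlapped, at 0.4191% and 0.4258% with SP-2509 and 0.4483% and 0.4203% with DMSO. Its median CPM per kb of exon was lower with SP-2509, at 16.8 and 17.3 against 18.9 and 17.6. In CYC1 and UQCRFS1 KO cells both measures were higher in both treated libraries. In MRPL45 KO cells 3 of 75 genes were called higher and 4 lower, where 10.4% of all genes were called higher and 8.09% lower (18.5% in either direction). In CYC1 KO cells the counts were 21 and 3 (18.7% and 14.7% of all genes, 33.4% in either direction). In UQCRFS1 KO cells they were 35 and 10 (29.6% and 25.1% of all genes, 54.7% in either direction), and in A673 25 and 20 (31.6% and 26.4% of all genes, 58% in either direction). The median log2 fold changes of the group were 0.02, 0.11, 0.17 and 0.06 in the same order of lines.

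These splits depended on the scaling, on the filter and, in places, on 1 library. Upper-quartile scaling moved the median of all genes by -0.18 in A673 and by -0.14 in UQCRFS1 KO cells, and then gave 12 higher and 34 lower in A673 and 23 higher and 21 lower in UQCRFS1 KO cells. The filter of 5 CPM gave 12 higher and 33 lower in A673 and 23 higher and 20 lower in UQCRFS1 KO cells, and a fit of only the groups compared gave 21 higher and 26 lower in A673. In A673 the counts were 15 and 22 without DMSO replicate 2 and 17 and 21 without SP-2509 replicate 1. Leaving out DMSO replicate 2 of MRPL45 KO cells gave 13 higher and 0 lower, leaving out DMSO replicate 1 gave 1 higher and 4 lower, and leaving out SP-2509 replicate 2 gave 3 higher and 1 lower. In CYC1 KO cells the counts were 10 and 3 without DMSO replicate 1 and 13 and 2 without SP-2509 replicate 1.

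In all 4 lines SP-2509 raised the same 3 of 75 genes, MRPL37, MRPS30 and MRPL42, where 7% of all tested genes were called higher in all 4 lines. The same 3 names were found with upper-quartile scaling, and DESeq2 added MRPS35. Without the filter on low counts, or with only the groups compared in the fit, MRPS30 was not called in MRPL45 KO cells, which leaves MRPL37 and MRPL42. In MRPL45 KO cells the calls of the 3 genes did not all hold when DMSO replicate 1 or SP-2509 replicate 1 was left out.

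MRPL37 had 102.3 and 108.2 CPM with SP-2509 and 75.9 and 78.2 CPM with DMSO in MRPL45 KO cells. It had 126.2 and 127.0 CPM with SP-2509 and 82.9 and 82.8 CPM with DMSO in CYC1 KO cells. In UQCRFS1 KO cells it had 95.2 and 94.2 CPM with SP-2509 and 44.2 and 49.1 CPM with DMSO. In every line both treated libraries exceeded both DMSO libraries, and so they did in A673, at 180.7 and 185.8 CPM with SP-2509 and 76.8 and 84.2 CPM with DMSO. The log2 fold changes were 0.45 ± 0.06, 0.61 ± 0.06, 1.02 ± 0.06 and 1.19 ± 0.06 in the 4 lines in that order, with edgeR adjusted p-values of 9.99e-06, 2.2e-08, 6.13e-13 and 2.31e-14. Exons of other genes cover 10.9% of the exons of MRPL37, on the opposite strand.

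MRPS30 had 93.0 and 94.0 CPM with SP-2509 and 80.7 and 84.5 CPM with DMSO in MRPL45 KO cells, and means of 101.3 CPM with SP-2509 and 69.2 CPM with DMSO in CYC1 KO cells. It had 96.1 and 92.8 CPM with SP-2509 and 52.3 and 54.7 CPM with DMSO in UQCRFS1 KO cells. In A673 its levels were 156.2 and 152.5 CPM with SP-2509 and 75.7 and 75.4 CPM with DMSO. Treated levels in the 3 knockout lines lay close together, while A673 stood well above them. The log2 fold changes were 0.18 ± 0.05, 0.55 ± 0.05, 0.82 ± 0.05 and 1.03 ± 0.05 in that order of lines (edgeR adjusted p = 0.0221, 2.08e-08, 3.67e-12 and 3.73e-14).

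MRPL42, a large-subunit protein specific to mitochondria, had 142.5 and 143.2 CPM with SP-2509 and 111.6 and 124.5 CPM with DMSO in MRPL45 KO cells. Its log2 fold changes were 0.28 ± 0.07 there, 0.44 ± 0.07 in CYC1 KO cells, 0.76 ± 0.07 in UQCRFS1 KO cells and 0.48 ± 0.07 in A673. MRPL42 has 4 annotated pseudogenes, with which its reads could be shared.

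MRPS26 was called lower with SP-2509 in all 4 lines, as 4.5% of all tested genes were. Its levels were 20.0 and 19.6 CPM with SP-2509 and 23.6 and 26.3 CPM with DMSO in MRPL45 KO cells, and 39.2 and 39.4 CPM against 57.8 and 61.3 CPM in A673. The log2 fold changes were -0.33 ± 0.08, -0.22 ± 0.07, -0.27 ± 0.07 and -0.60 ± 0.07 in MRPL45, CYC1 and UQCRFS1 KO cells and in A673. Thus MRPS26 was low in MRPL45 KO cells before treatment and was called lower again with SP-2509, although leaving out single libraries ended the call in MRPL45 and CYC1 KO cells.

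**Figure D3:**
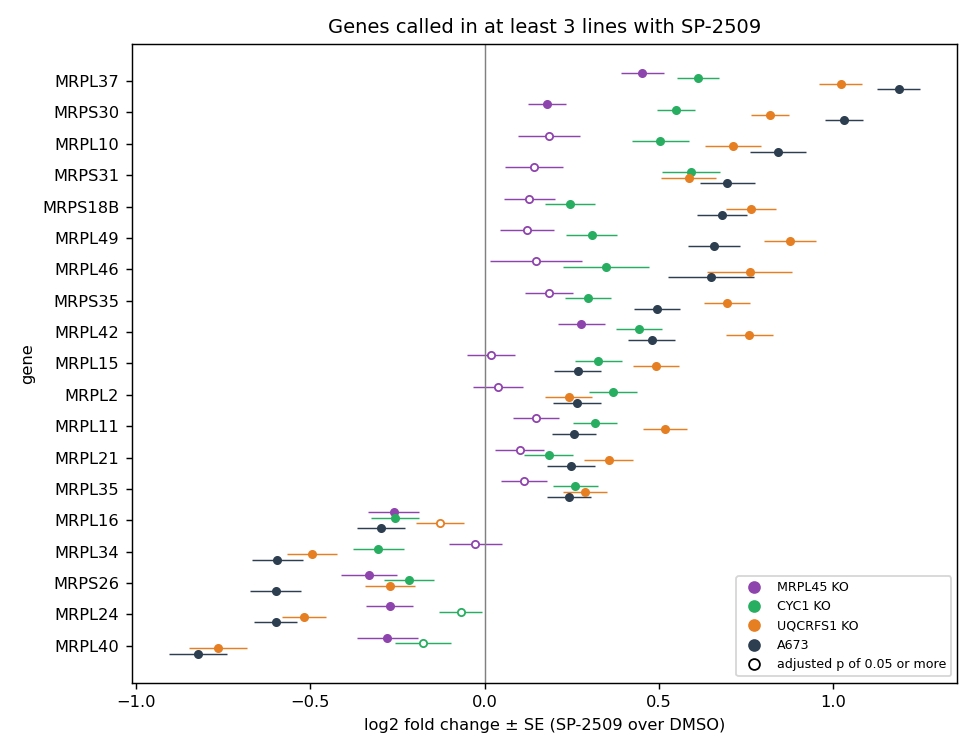
Log2 fold change ± SE with SP-2509 over DMSO in the 4 lines for the 19 genes called in the same direction in at least 3 lines. Filled points were called, open points had an adjusted p of 0.05 or more, and for MRPL37 and MRPS30 the A673 points lie farthest right and those of MRPL45 KO cells farthest left.

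In at least 3 lines 14 of 75 genes were called higher and 5 lower, where 17.2% of all tested genes were called higher and 11.9% lower in at least 3 lines. All 14 were called in CYC1 and UQCRFS1 KO cells and in A673. They are MRPL37, MRPS30 and MRPL42, the stalk base protein MRPL10, MRPL2, MRPL11, MRPL15, MRPL21, MRPL35, MRPL46 and MRPL49 of the large subunit, and MRPS18B, MRPS31 and MRPS35 of the small subunit. With upper-quartile scaling the counts were 8 and 7. MRPL10, which anchors the flexible stalk that recruits translation factors, had 48.1 and 49.4 CPM with SP-2509 and 28.1 and 26.3 CPM with DMSO in A673, a log2 fold change of 0.84 ± 0.08 (edgeR adjusted p = 2.08e-09). In MRPL45 KO cells it had 16.2 and 18.8 CPM with SP-2509 and 14.9 and 16.3 CPM with DMSO, and the groups overlapped.

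MRPL40 was the gene with the largest fall in A673, at 13.9 and 13.4 CPM with SP-2509 and 25.0 and 23.0 CPM with DMSO (log2 fold change -0.82 ± 0.08, edgeR adjusted p = 6.04e-09). It fell likewise in UQCRFS1 KO cells, with 14.05 and 12.5 CPM with SP-2509 and 24.1 and 21.03 CPM with DMSO (log2 fold change -0.76 ± 0.08, edgeR adjusted p = 2.16e-08). In MRPL45 KO cells it was called lower by less, with 15.15 and 13.9 CPM with SP-2509 and 17.2 and 17.9 CPM with DMSO (log2 fold change -0.28 ± 0.09, edgeR adjusted p = 0.0254). In CYC1 KO cells its levels were 25.9 and 23.8 CPM with SP-2509 and 28.3 and 27.8 CPM with DMSO, and it was not called. Besides MRPS26, the other genes called lower in at least 3 lines were MRPL24, MRPL34 and MRPL16, all relatives of bacterial proteins. MRPL40, MRPL24 and MRPL16 reached 3 lines through their calls in MRPL45 KO cells. Those calls were lost when DMSO replicate 2 of that line was left out. In A673 MRPL57 (-0.73 ± 0.06), MRPL58 (-0.67 ± 0.09) and MRPS36 (-0.50 ± 0.18) were called lower too. There MRPL32 (0.73 ± 0.16), MRPS31 (0.70 ± 0.08), MRPS2 (0.68 ± 0.16) and MRPS18B (0.68 ± 0.07) were called higher. In UQCRFS1 KO cells MRPL49 (0.88 ± 0.07), MRPL53 (0.84 ± 0.23) and MRPS18B (0.76 ± 0.07) were called higher and MRPS36 (-0.76 ± 0.19) lower. MRPL53 rested on low counts, at 2.33 and 3.21 CPM with SP-2509 and 1.52 and 1.56 CPM with DMSO.

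Between UQCRFS1 KO cells and A673, whose contrasts do not share libraries, 21 of 75 genes were called higher in both and 10 lower in both, where 25.5% of all tested genes were called higher in both and 19.1% lower in both. MRPS23 was the 1 member called in opposite directions, as 0.675% of all tested genes were, with 0.18 ± 0.07 in UQCRFS1 KO cells and -0.34 ± 0.07 in A673. In no line were 17 genes called, where 29.4% of all tested genes were called in none, and among the 17 were MRPL12, MRPL14, MRPL17, MRPL18 and MRPS16.

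**Figure D4:**
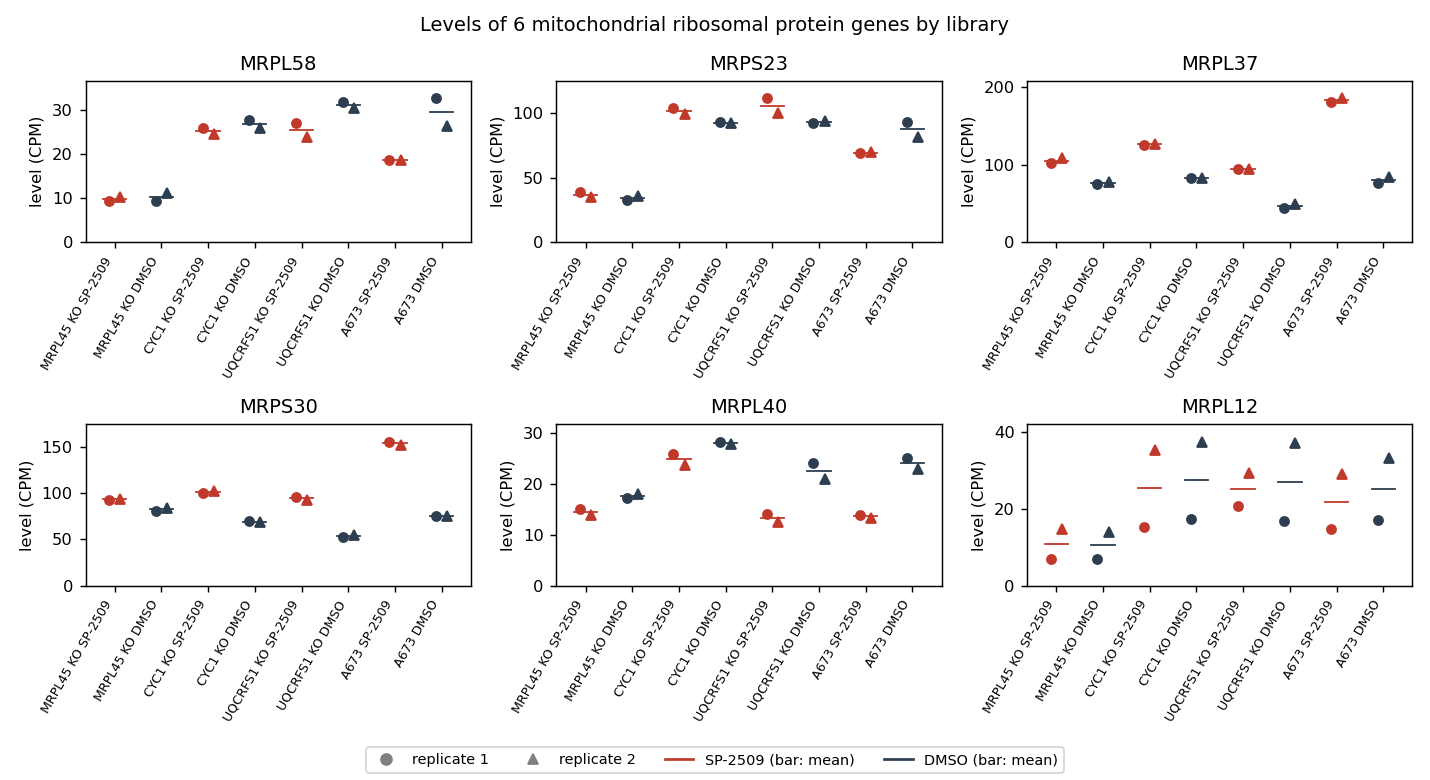
Level in CPM of 6 genes in every library, with circles for replicate 1, triangles for replicate 2, bars for the group mean, red for SP-2509 and dark blue for DMSO. MRPL58 and MRPS23 are low in MRPL45 KO cells with either treatment, and MRPL37 and MRPS30 stand highest in A673 with SP-2509. MRPL40 is lower with SP-2509 in all 4 lines, by the most in UQCRFS1 KO cells and in A673. The replicates of MRPL12 lie apart in every group.

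The response to SP-2509 was then compared between each knockout line and A673 as a difference of log2 fold changes in the same fit. For MRPL45 KO cells 11 of 75 genes had a difference above 0 that was called and 12 one below 0, where 14.5% and 24.2% of all genes did (38.7% in either direction). For CYC1 KO cells these counts were 14 and 5 (12.8% and 21% of all genes, 33.9% in either direction), and for UQCRFS1 KO cells 9 and 0 (3.02% and 7.68% of all genes, 10.7% in either direction). Upper-quartile scaling changed the split to 22 and 7 for MRPL45 KO cells and to 29 and 3 for CYC1 KO cells, the filter of 5 CPM to 24 and 8 and to 30 and 3, and scaling by relative log expression gave 8 and 5 for CYC1 KO cells. For MRPL45 KO cells the counts were 17 and 7 without DMSO replicate 2. For CYC1 KO cells 10 to 19 genes were called when 1 library was left out, with 10 without SP-2509 replicate 1, 10 without A673 SP-2509 replicate 2 and 12 without DMSO replicate 2. For UQCRFS1 KO cells it was 2 to 15 genes, with 2 without A673 SP-2509 replicate 2, 15 without DMSO replicate 2, and 3 without A673 replicate 1 of either treatment or knockout replicate 1 of either treatment. These differences share the A673 libraries.

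For 4 genes with large responses in A673 the difference is given as a description, since a gene picked for its size in A673 is likely to look smaller elsewhere. MRPS30 differed by -0.85 ± 0.08 in MRPL45 KO cells relative to A673 (edgeR adjusted p = 3.43e-09) and by -0.48 ± 0.08 in CYC1 KO cells (edgeR adjusted p = 2.29e-05). MRPL37 differed by -0.73 ± 0.09 (edgeR adjusted p = 2.14e-07) and -0.58 ± 0.09 (edgeR adjusted p = 9.58e-06). Of the genes that fell in A673, MRPL57 differed by 0.61 ± 0.09 and 0.66 ± 0.09 and MRPL40 by 0.54 ± 0.12 and 0.64 ± 0.12 in the same 2 lines. Other large responses in A673 did not all differ: MRPS31 differed by -0.10 ± 0.11 in CYC1 KO cells (edgeR adjusted p = 0.537). KDM1A, which encodes the target of SP-2509, had 166.6 to 174.5 CPM in MRPL45 KO cells, 222.0 to 228.7 CPM in CYC1 KO cells and 359.7 to 379.1 CPM in UQCRFS1 KO cells, against 321.4 to 352.4 CPM in A673. Its part in these differences was not tested.

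The other genes of mitochondrial translation also split with SP-2509. Of the 24 assembly factors, 3 were called higher and 3 lower in MRPL45 KO cells, 6 and 3 in CYC1 KO cells, 15 and 6 in UQCRFS1 KO cells, and 12 and 5 in A673. MRM3, a methyltransferase of the large ribosomal RNA, had 84.4 and 84.7 CPM with SP-2509 and 33.7 and 35.3 CPM with DMSO in A673 (log2 fold change 1.29 ± 0.06, edgeR adjusted p = 9.56e-15). MALSU1, which keeps the assembling large subunit from joining the small one, had 17.01 and 18.1 CPM with SP-2509 and 38.9 and 35.0 CPM with DMSO in A673 (log2 fold change -1.07 ± 0.07, edgeR adjusted p = 3.9e-12). MRM3 in MRPL45 KO cells had a log2 fold change of 0.29 ± 0.07, and its difference from A673 was -1.002 ± 0.092 (edgeR adjusted p = 4.5e-09). Of the 16 translation factors 4 were called higher and 3 lower in A673, where 31.6% and 26.4% of all genes were. In MRPL45 KO cells those called were MTIF2 and MTFMT, both lower, and in CYC1 KO cells SLIRP, higher, and MTFMT, lower. In UQCRFS1 KO cells TUFM, GFM1, MTRF1, GUF1, LRPPRC and SLIRP were called higher and MTIF2, C12orf65 and MTFMT lower. The cytosolic ribosomal protein genes had 9 of 79 called higher and 3 lower in MRPL45 KO cells (10.4% and 8.09% of all genes), 40 and 2 in CYC1 KO cells (18.7% and 14.7%), 44 and 5 in UQCRFS1 KO cells (29.6% and 25.1%), and 21 and 10 in A673 (31.6% and 26.4%).

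The responses are also given by promoter letters, as a description with no test. In A673 the 13 tested genes with AAGATGGCG had a median log2 fold change of 0.48 with SP-2509, with 7 called higher and 1 lower, and the 53 without it had -0.004, with 13 called higher and 17 lower. In UQCRFS1 KO cells these medians were 0.40 and 0.13, with 7 higher and 0 lower against 22 higher and 9 lower. The medians lay closer together in CYC1 KO cells (0.15 and 0.04) and in MRPL45 KO cells (0.13 and 0.002). Over all tested genes 31.6% were called higher and 26.4% lower in A673, and 29.6% and 25.1% in UQCRFS1 KO cells. Responses of other genes with the same letters are not given here, so no link to the letters can be read from these values. The 27 tested genes with CCGGAAG had a median of -0.11 in A673, with 4 called higher and 11 lower, and the 39 without it 0.13, with 16 higher and 7 lower. These medians were 0.17 and 0.16 in UQCRFS1 KO cells, with 11 higher and 4 lower against 18 higher and 5 lower, so the order seen in A673 was not found there. It was found in MRPL45 KO cells (-0.05 and 0.07), with 0 higher and 3 lower against 3 higher and 1 lower. CYC1 KO cells also had it (0.04 and 0.11), with 5 higher and 2 lower against 10 higher and 1 lower. In MRPL45 KO cells against A673 the medians were -0.46 with CCGGAAG and -0.51 without it, and -0.25 with AAGATGGCG and -0.51 without it.

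MRPL12, the stalk protein that MRPL10 anchors, had levels that followed the replicate number. In MRPL45 KO cells it had 7.05 and 14.7 CPM with SP-2509 and 7.02 and 14.1 CPM with DMSO for replicates 1 and 2. In A673 it had 14.7 and 28.97 CPM with SP-2509 and 17.04 and 33.2 CPM with DMSO. Replicate 2 was the higher in all 8 groups, and its SE was therefore large: the log2 fold change in MRPL45 KO cells was -1.29 ± 0.74 (edgeR adjusted p = 0.173). Exons of AC139530.2, on the same strand, cover 68.2% of the exons of MRPL12, so reads could be shared between them. MRPS18A and MRPS18C, relatives of bacterial S18, were lower in replicate 2 in all 8 groups, and so were MRPL46 and MRPS22. MRPL9 and MRPS2 were higher in replicate 2 in all 8 groups. Exons of MRPS18A and MRPS18C overlap genes on the opposite strand over 47.0% and 40.2% of their length. Counting both strands, the overlapped share was 11.3% for MRPL46, 7.8% for MRPS22, 39.7% for MRPL9 and 14.4% for MRPS2. Strand specificity is not given in the sources used here, and the part of these overlaps was not tested.

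Per kilobase of exon, MRPS34 stood highest in A673 with DMSO, at a mean of 125.7 CPM per kb, followed by MRPL51 at 98.5 and MRPL15 at 70.2 CPM per kb. MRPL30, MRPS24, MRPL38 and MRPL53 stood lowest, each under 1 CPM per kb. For each of these 4 genes exons of another gene cover between 23.2% and 45.2% of the exons, and how the authors counted shared reads is not given in the sources used here. Among the highest genes this share was 31.3% for MRPL51 and 0.0% for MRPS34 and MRPL15, so overlap was not confined to low genes. In all, 41 members overlap exons of another gene and 32 have an annotated pseudogene.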

How the data were processed

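The authors deposited 10 tables with raw counts per gene, whole numbers per the file headers, and each table holds the libraries of 1 comparison. Libraries present in several tables had the same counts in each (24 columns compared, 0 values differing). The authors also deposited scores under the prefix norm, which are counts divided by a size factor and rounded, and these were not used. The log2 fold changes and adjusted p-values that the authors deposited served only to count their own calls. The submitters' processing notes name STAR 2.5.2b, Trim Galore, DESeq2, FastQC and MultiQC, with build hg19. Which annotation and counter were used is not given in the sources used here.

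The raw counts were fitted with edgeR 4.0.16 in R 4.3.3. The fit held all 16 libraries with 8 group means, TMM factors, filterByExpr and robust quasi-likelihood F-tests, which are two-sided. It kept 21633 genes, with 8 residual degrees of freedom and a biological coefficient of variation of 0.0716. SE is the absolute log2 fold change over the square root of F. Tested were 10 comparisons: treatment with SP-2509 in 4 lines, 3 knockout lines against A673 with DMSO, and 3 differences in response. Alternatives were RLE and upper-quartile factors, DESeq2 1.42.0, no filter, a filter of 5 CPM, only the groups compared, a replicate block and leaving out each library. The fit was also run on simulated counts with the same dispersion for all genes and no effect of replicate number. That run cannot show how the fit handles such an effect. Replicates differed beyond sampling noise in every group (chi-square per degree of freedom from 20.2 to 40.9).

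The members, gene lists and tests were chosen with earlier results of these data known. The genes named were drawn from the called members with the largest absolute log2 fold change. These were up to 6 in each direction for SP-2509 in A673 and for MRPL45 KO cells, and up to 4 for the other comparisons. Up to 3 such genes of each list of related genes were added. MRPL12, MRPS18A, MRPS18B, MRPS18C, MRPS30, MRPS36, CYC1, UQCRFS1 and KDM1A were included regardless of size. Not every gene so chosen has its value printed for every comparison. Genes called in at least 3 lines, the grouping by chromosome and the promoter letters were added after values were seen. The genes CD3E and PECAM1 were not used here, and MRPL45 is not reported here. Overlaps, pseudogenes, chromosomes and exon lengths come from GENCODE 29, in which all 76 members were found by identifier; its build is GRCh38, not the hg19 of the tables. Rows without a symbol (2265) stayed in the totals.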

Additional observations from a re-analysis of the deposited data

Results flagged for a closer look

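For 21 values of named genes the response to SP-2509 differed between a knockout line and A673 by the test of the difference itself (edgeR, adjusted p under 0.05). They are given as differences of log2 fold changes, KO cells minus A673.

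In MRPL45 KO cells the difference was above 0 for MRPL58 (0.62), MRPL57 (0.61), MRPL34 (0.57) and MRPL40 (0.54), which SP-2509 lowered in A673. It was below 0 for MRPS30 (-0.85), MRPL37 (-0.73), MRPL10 (-0.66), MRPS31 (-0.55) and MRPS18B (-0.55), which SP-2509 raised in A673.

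In CYC1 KO cells the difference was above 0 for MRPL57 (0.66), MRPL40 (0.64), MRPL58 (0.58) and MRPL24 (0.53), and below 0 for MRPL37 (-0.58), MRPS30 (-0.48), MRPS18B (-0.44) and MRPL49 (-0.35). In UQCRFS1 KO cells it was above 0 for MRPS23 (0.52), MRPL54 (0.47), MRPL57 (0.38) and MRPS26 (0.33). All of these differences use the same 4 A673 libraries, and the members were named for their size, so no further reading is given. With 2 libraries in a group, no group was large enough for a check of single outlying libraries.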

How the results depend on the processing

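Leaving out each library in turn gave these ranges of called members. For MRPL45 KO cells against A673 it was 52 to 59, for CYC1 KO cells 15 to 21 (the fewest without A673 DMSO replicate 2) and for UQCRFS1 KO cells 21 to 27. For SP-2509 it was 4 to 13 in MRPL45 KO cells (13 without DMSO replicate 2), 13 to 17 in CYC1 KO cells, 34 to 42 in UQCRFS1 KO cells and 35 to 38 in A673. For the difference in response it was 17 to 24 for MRPL45 KO cells, 10 to 19 for CYC1 KO cells and 2 to 15 for UQCRFS1 KO cells. In those runs a group with 1 library is assumed to vary like the others. The difference in response of CYC1 KO cells had 19 called members, against 32 with upper-quartile factors, 33 with the filter of 5 CPM and 12 with DESeq2. That of UQCRFS1 KO cells had 9, against 20 with upper-quartile factors, 20 with the filter of 5 CPM, 5 with RLE factors, 5 with DESeq2 and 15 with a replicate block. The cause was not tested. The other 8 comparisons stayed within 1.5 times under every setting that kept all libraries. Same-numbered libraries deviated together with a correlation over 0.1 in 26 of 28 pairs of groups but not in the other 2 (lowest 0.034), and the labels name no shared culture or day, so the numbers were not taken to pair the samples. With the block 1139 genes (5.27%) and 8 members differed by replicate number, an effect added after seeing the data, with MRPL12 at 0.99 ± 0.07 for replicate 2 over 1 and its value in MRPL45 KO cells against A673, not called without the block, called at -1.26 (edgeR, adjusted p = 7.78e-06). Of 1419 values of named genes under other settings 86 lost the call, 1 gained it and 0 reversed, and of 980 values without a library 186 lost it and 0 reversed. The authors' deposited table called 55 members lower and 3 higher in MRPL45 KO cells. Members under about 3 CPM (MRPL30, MRPS24, MRPL53 and MRPL38) have too few counts for small changes to be detectable.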
